A study of Mus musculus with 4 samples.

Results

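The 44 collagen genes of a mouse brain spatial transcriptomics table are described here. They are every row symbol made of Col, a number, the letter a and a number, out of 19465 genes. The assay was Visium CytAssist, which reads pairs of gene-specific probes in formalin-fixed, paraffin-embedded tissue and counts them in a grid of barcoded spots. Each spot covers a small patch of tissue and can hold several cells of different types, or parts of them. Coronal brain slices that include the striatum came from 2 wild-type mice and 2 mice heterozygous for Celsr3, a cadherin-family adhesion receptor of neurons. No treatment was given, and strain, age and sex are not given in the sources used here.

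The count table held 12602 spots whose names carry 1 of 4 endings, called barcode sets 1 to 4 below. The labels name these endings nowhere, so 0 of the 4 sets are tied to a mouse. Genotypes were not compared for that reason, and each set is given on its own, with no mean, SD or p-value over sets. The targeted gene Celsr3 stood at 31.7, 46.8, 26.0 and 47.2 counts per 1000000 counts (CPM) in sets 1 to 4, values that were not used to assign a genotype. The 4 sets held 2808 to 3444 spots after 1 spot with fewer than 500 counts was left out, with total counts of 90752475 to 174761560 and median counts per spot of 26440 to 52480. Between the sets 1613 of 4744 different barcodes occurred in all 4, as barcodes mark positions on a slide.

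Collagens are extracellular proteins built from 3 chains wound into a triple helix, and each gene encodes 1 kind of chain. Fibrillar collagens form the tensile fibres of connective tissue, which in the brain lie in the meninges, around larger vessels and in the stroma of the choroid plexus. Type IV collagen makes the sheet-like basement membrane around vessels and under the brain surface. Several other collagens sit on fibrils, span cell membranes or are made by neurons and glia, so the collagen genes as a family are not a marker of a single tissue.

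Spots were grouped into 27 clusters without any collagen gene, and a cluster was assigned to an area when at least 3 of that area's marker genes were among its 20 leading genes. For each gene, set and area the ratio is the CPM in the area over the CPM in all other spots of the same set, with an exact 95% interval that covers counting error only. A gene is called higher where the ratio was at least 2, and lower where it was at most 0.5, with an interval that leaves out 1 in every set with at least 30 spots of the area. Of the 44 collagen genes, 37 had at least 100 counts in every set and are counted below, and the other 7 are given at the end of their classes. CPM values are probe counts and are not compared between genes. In spots, fewer cells of a type and less RNA per cell cannot be told apart.

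In the meninges area 9 of 37 collagen genes were higher and 0 lower over all 4 sets, where 3.73% of all genes tested were called higher and 1.54% lower. In the choroid plexus area 5 were higher and 1 lower, beside 4.18% and 3.67% of all genes, and leaving out set 2 gave 13 higher and 2 lower, beside 7.24% and 5.68%. In white matter 4 were higher and 1 lower (all genes 6.6% and 6.41%). The striatum had 0 higher and 8 lower (all genes 2.92% and 8.2%). The cortex had 4 higher and 6 lower (all genes 2.61% and 6.85%), and the hypothalamus and preoptic area had 2 higher and 3 lower (all genes 2.57% and 3.73%).

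Some areas reached the minimum of 30 spots in only some sets. The ventricle lining had 25, 28, 42 and 43 spots in sets 1 to 4. In sets 3 and 4, the sets used, 7 collagen genes were higher and 2 lower (all genes 8.6% and 4.66%). The thalamus had 149, 0, 2 and 298 spots, and sets 1 and 4 gave 3 higher and 9 lower (all genes 2.95% and 6.96%). Cluster 14, led by Lbhd2, Prkcd and Zic1, had 26, 140, 261 and 0 spots. Its sets 2 and 3 gave 9 higher and 4 lower (all genes 2.75% and 4.15%). The marker rule put cluster 14 with the septum through 5 septal markers among its leading genes, but 4 thalamic markers were there too, so it is called by its number. Calls that rest on 2 sets meet a weaker condition than calls over 4 sets.

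The median over the 37 genes of the ratio, taken as the median over sets, summarises each area in one value. It was 1.78 in the meninges, where the median over all genes was 0.967, and 1.25 in the choroid plexus, where all genes had 0.978. It was 0.562 in the striatum and 0.644 in the cortex, where all genes had 0.930 and 0.896. The heatmap of ratios shows that these medians hide members on the other side of 1, such as Col19a1 and Col5a1, which were both higher in the cortex.

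**Figure D1:**
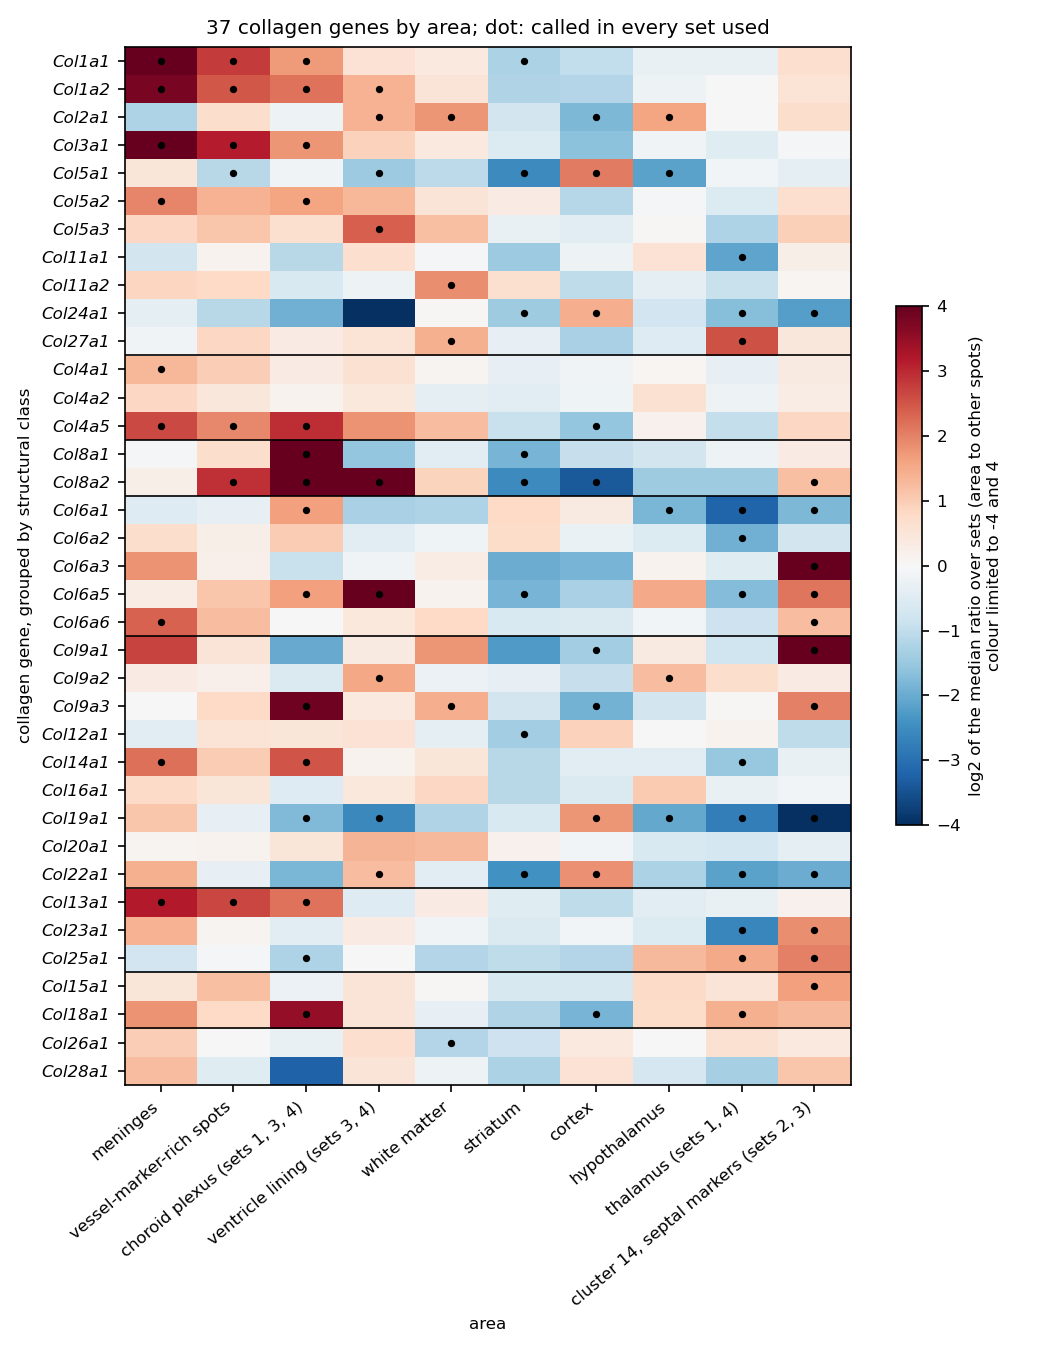
Ratio of each collagen gene in each area over the other spots of the same set, as the median over the sets used, on a log2 colour scale, with genes in rows ordered by class and areas and vessel-marker-rich spots in columns, and a dot where the gene was called in every set used. Col1a1, Col1a2 and Col3a1 are darkest in the meninges column, while Col5a1, Col19a1, Col22a1 and Col24a1 stand out in the cortex column and Col8a1 and Col8a2 in the choroid plexus column, which is drawn without set 2.

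Among the 11 fibrillar genes, all of which passed the minimum, Col1a1, Col1a2, Col3a1 and Col5a2 were higher in the meninges area. Col1a1 and Col1a2 encode the chains of type I collagen, the main fibril of connective tissue, and Col3a1 encodes type III collagen, which is laid down with it in vessel walls and the meninges. The promoter windows of Col1a2 and Col3a1, whose levels went together over areas, are shown to set beside each other what lies before their start sites. They hold the 250 bases before the annotated start in RefSeq's GRCm38.p6 build, read along the gene's own strand, at chr6:4505368-4505617 for Col1a2 and chr1:45311288-45311537 for Col3a1, both on the plus strand. Capitals mark matches to the CAAT-box core CCAAT, the TATA-box core TATAAA and the GC-box core GGGCGG, each searched on both strands.
Col1a2: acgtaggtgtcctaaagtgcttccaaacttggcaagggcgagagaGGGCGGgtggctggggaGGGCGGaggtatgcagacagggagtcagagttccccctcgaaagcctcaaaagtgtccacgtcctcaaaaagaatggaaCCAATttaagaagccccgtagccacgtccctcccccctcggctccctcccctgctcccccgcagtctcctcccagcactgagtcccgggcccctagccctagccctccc
Col3a1: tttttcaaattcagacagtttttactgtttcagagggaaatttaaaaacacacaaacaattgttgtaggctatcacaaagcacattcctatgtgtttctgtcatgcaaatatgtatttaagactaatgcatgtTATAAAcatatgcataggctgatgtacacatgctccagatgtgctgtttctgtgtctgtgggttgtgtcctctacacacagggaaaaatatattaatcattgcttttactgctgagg
The Col1a2 window held 1 CCAAT and 2 GGGCGG, and the Col3a1 window held 1 TATAAA and neither of the others. CCAAT or its reverse was in 33.8% of all 32851 promoter windows of this length, TATAAA in 12.4% and GGGCGG in 32.7%, so these matches are common letters and are given as a description only. Among 38 windows of 35 collagen genes, 13 held CCAAT, 5 held TATAAA and 22 held GGGCGG. All 44 symbols matched a RefSeq gene.

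In the meninges area Col1a1 stood at 142, 156, 117 and 99.5 CPM in sets 1 to 4 and in other spots at 12.6, 5.50, 7.30 and 5.24 CPM. The ratios (with 95% intervals) were 11.3 (9.87 to 12.9), 28.4 (24.8 to 32.4), 16.1 (14.2 to 18.2) and 19.0 (15.4 to 23.3). Every meningeal value lay far above every value of other spots, and the level inside the area was less variable over sets than the level outside. Col1a2 stood at 218, 449.6, 238 and 261 CPM in the area and at 20.6, 19.8, 16.1 and 20.4 CPM outside, ratios of 10.6, 22.7, 14.8 and 12.8. Set 2 held the highest Col1a2 value inside the area, and the lowest inside value was still above all outside values. Col3a1 stood at 37.8, 79.3, 64.8 and 58.3 CPM inside and 6.13, 3.75, 3.70 and 3.49 CPM outside, ratios of 6.17, 21.1, 17.5 and 16.7. Set 1 had the lowest ratio for all 3 of these genes, and its meninges area was the smallest, at 50 spots, against 124, 96 and 149 in sets 2 to 4. Col5a2, a chain of type V collagen that is built into type I fibrils, stood at 13.2, 36.0, 15.6 and 33.5 CPM inside and 3.89, 9.39, 3.90 and 5.30 CPM outside, ratios of 3.38, 3.83, 3.99 and 6.31, with the groups of inside and outside values not overlapping.

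**Figure D2:**
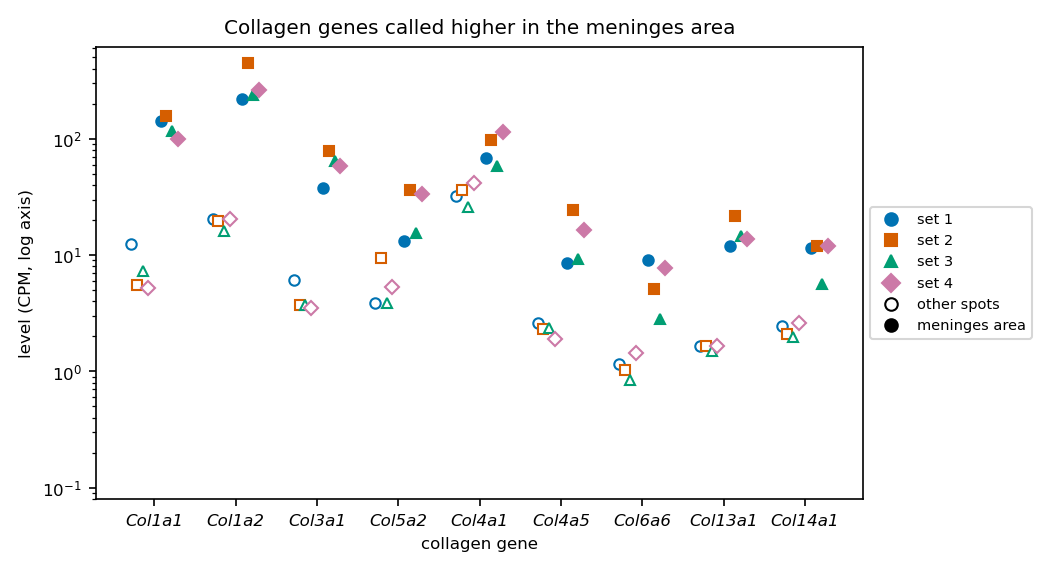
CPM of the collagen genes called higher in the meninges area, on a log axis, with 1 filled point per barcode set inside the area and 1 open point per set in all other spots. Col1a1 sits between 99.5 and 156 CPM inside and between 5.24 and 12.6 CPM outside.

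The meninges area is cluster 15, led by Ptgds, Mgp and Slc22a6, and 20 of the 23 meningeal markers tested were higher there. Ogn, Fmod, Dcn, Lum and Pcolce are on that marker list and also on the partner lists given below. Spots of the brain surface are mixed, and other marker lists moved with the area. The fibroblast list shares Slc6a13, Slc47a1, Slc22a6, Aldh1a2, Foxc1, Foxd1, Lum and Dcn with the meningeal list. The pericyte list shares Vtn with it, so neither list is separate from the meningeal markers. Summed smooth muscle markers stood at 269 to 468 CPM against 38.2 to 66.9 CPM in other spots (lowest to highest set; 6 of 8 markers higher), fibroblast markers at 358 to 623 CPM against 66.2 to 93.4 CPM (7 of 11 higher) and endothelial markers at 884 to 1368 CPM against 308 to 425 CPM (10 of 13 higher). Pericyte markers were at 2.47 to 3.50 times, astrocyte markers at 2.28 to 3.21 times and the cortex marker list at 1.11 to 1.45 times their level in other spots. In none of these lists was a marker at 0 counts inside the area. Median counts per spot in the area ran from 6267 in set 4 to 32580 in set 1. The part of these cell types and of depth in the collagen ratios was not tested. Where the area was drawn by a marker score instead, which took in 847 to 1356 spots per set, Col1a1, Col1a2, Col3a1, Col4a5 and Col13a1 were still called and Col5a2, Col4a1, Col6a6 and Col14a1 were not.

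Type I and type III collagen genes were also higher in the choroid plexus area where set 2 was left out. Cluster 23, led by Ttr, Ecrg4 and Folr1, held 88, 36, 94 and 33 spots in sets 1 to 4. Its 36 spots in set 2 held little of the choroid plexus markers: Ttr, the transthyretin that choroid plexus epithelium secretes, stood at 148500, 76.0, 139200 and 59640 CPM, and the anti-ageing receptor gene Kl at 447, 0.884, 399 and 217 CPM. Against other spots of set 2 the markers went both ways. Calml4 stood at 19.1, Folr1 at 13.3 and Ttr at 6.69 times, but Kl at 0.568 and Enpp2 at 0.427 times. Results for this area are therefore given with all sets and without set 2, and the comparison without set 2 was not planned. The Col1a2 ratio was 4.50, 1.32, 4.08 and 7.29, the Col1a1 ratio 3.23, 0.709, 2.08 and 5.79 and the Col3a1 ratio 3.43, 0.823, 2.16 and 3.78 in sets 1 to 4. All 3 were called higher without set 2 and not with it. Of the other areas, Col1a1 was lower in the striatum (0.493, 0.359, 0.390 and 0.433) (lost with TMM or RLE scaling) and Col1a2 was higher in the ventricle lining (2.79 and 2.47 in sets 3 and 4). The other spots of the striatal ratio hold the meninges and the choroid plexus cluster. In set 2 the meninges had 364 Col1a1 counts against 590 outside it. A striatal ratio without these areas was not computed. In the choroid plexus cluster Col5a2 was higher in all 4 sets, with ratios of 3.0, 4.99, 2.35 and 3.66. In the cluster without set 2 fibroblast markers stood at 1.99 to 3.10 times their level in other spots, with 3 of 11 higher. Meningeal markers stood at 4.51 to 7.36 times, with 9 of 23 higher. These lists share genes, and their part in the collagen ratios of the cluster was not tested.

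Col5a1, which encodes the other common chain of type V collagen, was called in areas where Col5a2 was not. Its level was 12.1, 29.2, 16.8 and 24.9 CPM in the cortex of sets 1 to 4 and 2.68, 7.37, 4.08 and 5.75 CPM in other spots, ratios of 4.53 (3.96 to 5.19), 3.97 (3.56 to 4.43), 4.11 (3.66 to 4.63) and 4.32 (3.8 to 4.93). In the striatum it stood at 1.46, 2.56, 2.17 and 2.41 CPM, ratios of 0.205, 0.115, 0.182 and 0.162. Cortical and striatal values did not overlap, and the direct ratio of cortex to striatum was 8.31, 11.4, 7.75 and 10.3. Col5a1 was also lower in the hypothalamus and preoptic area (0.291, 0.245, 0.164 and 0.211) and in the ventricle lining (0.356 and 0.378 in sets 3 and 4). In the meninges its ratio was 1.43, 1.38, 1.30 and 2.12 and it was not called. Col24a1, a fibrillar chain known from bone and cornea, was higher in the cortex at 2.65, 2.60, 2.00 and 3.43 CPM, ratios of 3.45, 2.18, 3.33 and 2.11, and lower in the striatum, ratios of 0.364, 0.375, 0.298 and 0.497. It was among the sparser genes, with 203 to 251 counts per set in all, and was lower in the thalamus (0.202 and 0.409) and in cluster 14 (0.372 and 0.0644) too. Its striatal call was lost with TMM or RLE scaling. In the ventricle lining it had 0 counts in sets 3 and 4, which allows up to 2.65 and 3.74 CPM at 3 counts, and it was not called.

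Col11a2, Col2a1 and Col27a1 were the fibrillar genes higher in white matter. Col11a2 encodes a chain of the cartilage-type collagen XI, and in white matter it stood at 79.2, 82.0, 73.8 and 75.7 CPM in sets 1 to 4, against 21.5, 22.4, 20.5 and 23.2 CPM in other spots. The ratios of 3.68 (3.41 to 3.96), 3.66 (3.17 to 4.22), 3.60 (3.17 to 4.08) and 3.25 (2.87 to 3.67) were close to each other over the 4 sets. Col11a2 was lower in cortex than in striatum, with ratios of 0.486, 0.497, 0.399 and 0.427, of which sets 1 and 2 sat just inside the limit of 0.5 and lost the call with TMM or RLE scaling. Col2a1, the cartilage collagen II gene, stood at 4.84, 7.66, 7.60 and 14.3 CPM in white matter, ratios of 3.21, 3.65, 4.46 and 2.82. Col2a1 was also higher in the hypothalamus and preoptic area (2.46, 2.99, 3.85 and 2.98) and in the ventricle lining (2.93 and 2.30), and lower in the cortex (0.315, 0.364, 0.264 and 0.261). In white matter all 8 oligodendrocyte markers tested were higher, at 8.08 to 11.9 times their level in other spots, and 5 of 8 markers of oligodendrocyte precursors were higher too. The part of these cells in the Col11a2 and Col2a1 ratios was not tested.

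Col27a1, a fibrillar chain of cartilage and of several epithelia, stood highest in the thalamus among all clusters with at least 30 spots in a set. It stood at 41.1 and 34.0 CPM in sets 1 and 4, against 7.21 and 5.61 CPM in other spots, ratios of 5.70 (5.13 to 6.32) and 6.06 (5.27 to 6.98). In white matter its ratios were 2.22, 4.02, 3.17 and 2.15, and this call was lost under 4 other settings. In the cortex its ratios were 0.309, 0.667, 0.508 and 0.241, with sets 2 and 3 above 0.5, and no call. Col11a1, the partner chain of Col11a2, was lower in the thalamus (0.241 and 0.219) and not called elsewhere. Col5a3 was called in the ventricle lining alone of these areas, with ratios of 4.36 and 6.17 that rest on 4 and 12 counts in sets 3 and 4. In that area the calls of Col5a3, Col2a1, Col9a2 and Col22a1 were lost with TMM or RLE scaling.

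Of the type IV collagen genes that passed the minimum, Col4a1 and Col4a5 were higher in the meninges. Col4a1 and Col4a2 encode the common chains of the vascular basement membrane, and their genes lie head to head on chromosome 8. Their annotated start sites in GRCm38.p6 lie on opposite strands, with Col4a2 running along the plus strand from 11312805 and Col4a1 along the minus strand from 11312826, and the 22 bases from one start site to the other, both included, at chr8:11312805-11312826 are shown, plus strand.
Col4a1 and Col4a2 start sites: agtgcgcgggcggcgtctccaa
Col4a1 stood at 68.1, 98.2, 58.8 and 115 CPM in the meninges and 32.3, 36.0, 25.7 and 41.4 CPM in other spots, ratios of 2.11 (1.75 to 2.53), 2.72 (2.37 to 3.11), 2.29 (1.95 to 2.67) and 2.78 (2.32 to 3.30). Its inside and outside values did not overlap, and it was called higher, except at a clustering resolution of 0.4 or by marker score. Col4a2 had ratios of 1.49, 1.98, 1.58 and 2.36 and was not called, since sets 1 to 3 lay under 2. In no other area was either gene called. In the striatum the Col4a1 ratios were 0.998, 0.618, 0.771 and 0.806 and the Col4a2 ratios 0.820, 0.578, 0.702 and 0.751, and in the cortex 0.819, 1.10, 0.827 and 0.976 and 0.827, 1.01, 0.857 and 0.920.

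Col4a5, a chain better known from kidney and smooth muscle basement membranes, varied more. Its ratios were 3.30, 10.6, 3.88 and 8.49 in the meninges and 7.98, 3.25, 7.24 and 7.82 in the choroid plexus cluster, higher in both and also where set 2 was left out. In CPM it stood at 8.59, 24.4, 9.21 and 16.3 in the meninges, at 16.1, 8.84, 14.7 and 15.5 in the choroid plexus cluster and at 2.60, 2.31, 2.37 and 1.92 in spots outside the meninges. In the cortex it was lower, with ratios of 0.240, 0.444, 0.288 and 0.397, a call lost with TMM or RLE scaling. The other spots of the cortex ratio hold the meninges and the choroid plexus cluster. The 3 other members, Col4a3, Col4a4 and Col4a6, had 77 to 216 counts per set over the whole section and did not pass the minimum of 100 counts in every set, so they are in no count. Col4a6, the partner chain of Col4a5, had ratios of 7.43, 16.8, 14.7 and 13.2 in the meninges, on 9, 34, 26 and 12 counts, and of 10.8, 6.51, 8.92 and 5.50 in the vessel-marker-rich spots, on 42, 27, 26 and 19 counts. In both areas its ratio and interval met the limits of a call in every set, and with no minimum 10 members were called in the meninges and 8 in the vessel-marker-rich spots. Col4a3, a chain of the kidney's filtering basement membrane, had ratios of 46.8, 2.56, 28.4 and 2.78 in the choroid plexus cluster, on 149, 2, 79 and 2 counts. Col4a4, another chain of that membrane, had ratios of 40.5, 2.06, 33.2 and 21.2 there, on 127, 2, 85 and 17 counts. Both stood out in sets 1 and 3, and in set 2 the interval of neither left out a ratio of 1.

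Among the 37 genes that passed the minimum, the short-chain collagens VIII gave the largest ratios of the choroid plexus cluster in sets 1, 3 and 4. Col8a1 and Col8a2 encode the network collagen of the corneal and vascular subendothelium. Their promoter windows are shown because both genes were led by the same area: chr16:57754738-57754987 on the minus strand for Col8a1 and chr4:126286544-126286793 on the plus strand for Col8a2, each read along the gene's own strand, with capitals marking the GC-box core GGGCGG on either strand.
Col8a1: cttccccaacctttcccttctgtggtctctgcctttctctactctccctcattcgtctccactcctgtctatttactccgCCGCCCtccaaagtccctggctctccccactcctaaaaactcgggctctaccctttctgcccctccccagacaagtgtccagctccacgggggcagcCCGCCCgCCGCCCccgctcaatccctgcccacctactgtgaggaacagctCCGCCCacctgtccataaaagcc
Col8a2: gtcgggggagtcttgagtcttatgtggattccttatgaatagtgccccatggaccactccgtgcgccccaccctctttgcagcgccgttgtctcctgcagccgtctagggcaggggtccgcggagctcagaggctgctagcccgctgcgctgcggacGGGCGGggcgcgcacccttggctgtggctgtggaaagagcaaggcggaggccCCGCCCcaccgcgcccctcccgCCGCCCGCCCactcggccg
Each window held 4 matches to this GC-rich motif, of which the last 2 in Col8a2 overlap each other, and no CCAAT or TATAAA on either strand. The motif was in 32.7% of all promoter windows, and a match is not evidence of binding.

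Col8a2 stood at 195, 25.6, 135 and 113 CPM in the choroid plexus cluster of sets 1 to 4 and at 3.08, 1.34, 2.49 and 2.25 CPM in other spots. The ratios were 63.4 (57.3 to 70.2), 19.1 (12.3 to 28.5), 54.4 (48.1 to 61.5) and 50.3 (39.0 to 64.5). Sets 1, 3 and 4 had values above 100 CPM, and set 2, whose spots lack the Ttr level of the others, had the lowest. Col8a1 stood at 151, 0, 76.8 and 76.2 CPM inside and 3.04, 2.24, 2.60 and 2.85 CPM outside, ratios of 49.7, 0, 29.5 and 26.8. In set 2 it had 0 counts in the cluster, which allows up to 2.65 CPM at 3 counts, so it was called higher only where set 2 was left out. In the cluster of sets 1, 3 and 4 its levels did not overlap with those outside.

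**Figure D3:**
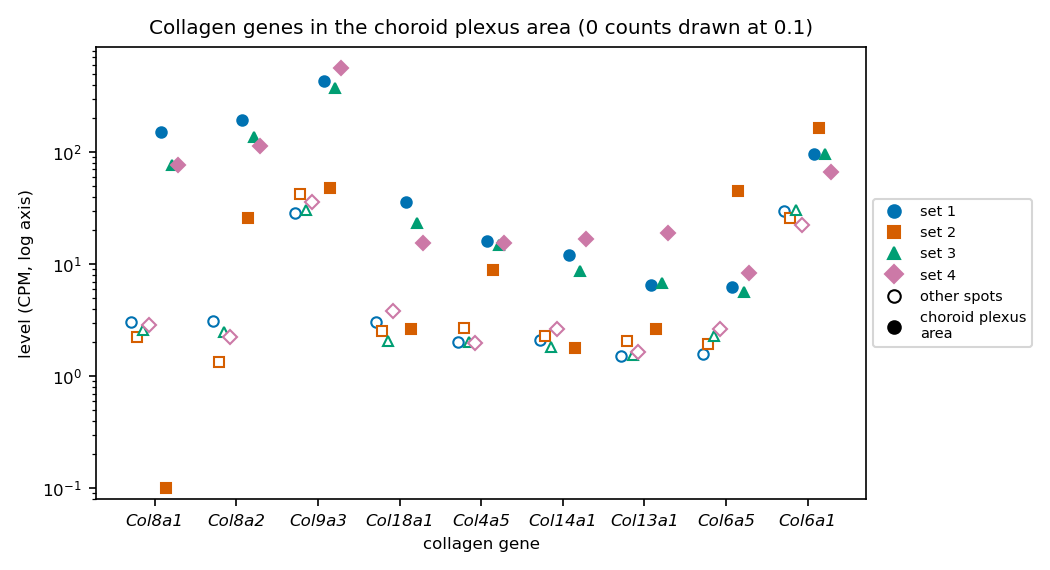
CPM of collagen genes in cluster 23 (choroid plexus markers) and in all other spots, on a log axis, with 1 filled point per barcode set in the cluster and 1 open point per set outside, and 0 counts drawn at 0.1 CPM. Col8a1, Col8a2, Col9a3 and Col18a1 lie far above the other spots in sets 1, 3 and 4, and set 2 does not follow for Col8a1, Col9a3 and Col18a1.

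The pair parted at the ventricle lining, the layer of ciliated ependymal cells. Col8a2 was higher there, at 69.8 and 67.3 CPM in sets 3 and 4 and ratios of 10.2 and 24.9, while Col8a1 had ratios of 0.332 and 0.351 from 2 and 1 counts and was not called. Both were lower in the striatum, Col8a2 with ratios of 0.0370, 0.304, 0.0316 and 0.368 and Col8a1 with 0.104, 0.423, 0.172 and 0.382. The other spots of this ratio hold the choroid plexus cluster. The striatal levels themselves were 0.536, 0.581, 0.289 and 1.32 CPM for Col8a2 and 1.22, 1.08, 1.10 and 1.48 CPM for Col8a1. Col8a2 was also lower in the cortex (0.0215, 0.237, 0.0462 and 0.147) and higher in cluster 14 (2.26 and 2.40). The other spots of the cortex ratio hold the choroid plexus cluster too. Col10a1, the collagen of hypertrophic cartilage, had 26 to 66 counts per set and did not pass the minimum.

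The beaded-filament collagens VI did not move as a unit. Type VI collagen forms fine filaments near cell surfaces from the chains of Col6a1 and Col6a2 with a further chain encoded by Col6a3, Col6a5 or Col6a6. In the choroid plexus cluster Col6a1 stood at 95.8, 164, 96.0 and 66.7 CPM against 30.1, 26.0, 30.5 and 22.4 CPM outside, ratios of 3.18 (2.94 to 3.44), 6.33 (5.42 to 7.34), 3.14 (2.88 to 3.43) and 2.98 (2.24 to 3.88), higher in all 4 sets. Here set 2 had the highest value, unlike for Col8a2. Col6a5 was also higher in all 4 sets, with ratios of 3.97, 23.2, 2.49 and 3.13. Set 2 was again the highest, and ventricle lining markers stood at 5.17 to 9.67 times their level outside in this cluster over the 4 sets.

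Col6a5 was higher in the ventricle lining as well. It stood at 44.2 and 38.6 CPM there in sets 3 and 4, against 2.12 and 2.39 CPM in other spots, ratios of 20.9 (15.2 to 28.1) and 16.2 (10.7 to 23.6). These were the largest ratios of the 37 genes in that area in set 3, and in set 4 only Col8a2 was above it. It was lower in the striatum (0.240, 0.312, 0.148 and 0.338) and thalamus (0.324 and 0.282) and higher in cluster 14 (5.99 and 2.76). In the hypothalamus and preoptic area the ratio changed side between sets, 2.31, 0.667, 3.37 and 4.62, with no call. The clusters of this area differed between sets. Cluster 17, led by Gal and Nts, had 0, 370, 9 and 0 spots in sets 1 to 4, and cluster 5, led by Avp and Oxt, had 215, 1, 127 and 303. The part of this difference in the ratios was not tested.

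Col6a1 also varied within the striatum. Over the whole striatum it stood at 57.4, 30.8, 41.8 and 47.8 CPM and outside at 27.3, 26.4, 30.6 and 18.7 CPM, ratios of 2.10, 1.17, 1.37 and 2.56, not called. By cluster, Col6a1 stood at 88.6, 65.4, 60.0 and 54.7 CPM in sets 1 to 4 in cluster 0, led by Rgs9 and Adora2a, at 35.8 and 14.7 CPM in sets 1 and 3 in cluster 2, led by Syndig1l and Scn4b, and at 123, 96.2 and 120.2 CPM in sets 1, 3 and 4 in cluster 24, led by Pdyn, Penk and Wfs1. In the sets that hold both, cluster 0 lay above cluster 2 and cluster 24 above cluster 0. Col6a2 stood at 34.7, 33.9, 33.3 and 34.0 CPM in sets 1 to 4 in cluster 0, 24.2 and 21.2 CPM in sets 1 and 3 in cluster 2 and 39.4, 36.3 and 34.9 CPM in sets 1, 3 and 4 in cluster 24. Col6a1 and Col6a2 were both lower in the thalamus, with ratios of 0.117 and 0.102 and of 0.275 and 0.252, and Col6a1 was lower in the hypothalamus and preoptic area (0.356, 0.208, 0.432 and 0.196) and in cluster 14 (0.206 and 0.365).

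Col6a3, the long chain of type VI collagen, was called in cluster 14 alone. It stood at 47.4 and 75.9 CPM there in sets 2 and 3 and at 2.36 and 1.81 CPM in other spots, ratios of 20.03 (16.8 to 23.9) and 41.9 (36.6 to 48.1). In the meninges its ratios were 5.67, 3.17, 1.36 and 3.84 and it was not called. Col6a6 was higher in the meninges (7.89, 4.97, 3.36 and 5.36), on 16, 12, 8 and 9 counts, and in cluster 14 (2.57 and 2.10). Col6a4 had 87 to 256 counts per set and did not pass the minimum, as set 1 had 88 and set 4 had 87.

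The FACIT collagens, which carry interrupted triple helices and mostly sit on the surface of fibrils, were called in many different areas. All 9 members passed the minimum. Col21a1 was not analysed here. Col19a1, a collagen expressed by subsets of interneurons, was higher in the cortex and lower in 5 of the other 8 areas and clusters compared. It stood at 46.3, 70.4, 55.8 and 64.9 CPM in the cortex against 13.2, 21.6, 18.2 and 17.0 CPM in other spots, ratios of 3.50 (3.29 to 3.73), 3.26 (3.06 to 3.48), 3.07 (2.90 to 3.25) and 3.81 (3.53 to 4.12). Cortical values did not overlap with those of other spots. It was lower in the choroid plexus cluster (0.294, 0.456, 0.211 and 0.334), ventricle lining (0.124 and 0.209), hypothalamus and preoptic area (0.286, 0.277, 0.200 and 0.207), thalamus (0.177 and 0.115) and cluster 14 (0.0420 and 0.0770). In the meninges Col19a1 stood at 61.8, 77.6, 64.1 and 89.2 CPM, in each set above its cortical value, with ratios of 2.52, 1.78, 1.84 and 2.56 and no call. Cortex markers stood there at 1.11 to 1.45 times their level in other spots, and their part in the Col19a1 level was not tested.

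Col22a1, known from tissue junctions such as those of muscle and tendon, was the second FACIT gene of the cortex. It stood at 6.23, 8.21, 5.80 and 6.95 CPM there and 1.33, 2.32, 1.62 and 2.47 CPM elsewhere, ratios of 4.70, 3.54, 3.57 and 2.81, a call lost at resolution 1.2 and without centring. In the striatum it stood at 0.626, 1.01, 0.838 and 1.32 CPM, ratios of 0.172, 0.160, 0.198 and 0.283. The values of cortex and striatum did not overlap. Col22a1 was lower in the thalamus (0.237 and 0.221) and cluster 14 (0.202 and 0.300) and higher in the ventricle lining (2.27 and 2.40, on 9 and 8 counts). Col12a1, a fibril-associated chain of tendon and ligament, was lower in the striatum (0.391, 0.378, 0.306 and 0.414), and its cortex to striatum ratios were 3.35, 3.33, 3.65 and 2.34.

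Type IX collagen, known best from cartilage, is built from the chains of Col9a1, Col9a2 and Col9a3, and the 3 genes were called in different areas. Col9a3 stood at 429, 47.7, 374 and 563 CPM in the choroid plexus cluster against 28.6, 42.6, 30.2 and 35.8 CPM outside, ratios of 15, 1.12, 12.4 and 15.7, higher where set 2 was left out. Only set 2 was at the level of other spots. Col9a3 was also higher in white matter (2.58, 3.44, 2.89 and 2.64) and cluster 14 (4.95 and 3.07), and lower in the cortex (0.201, 0.399, 0.209 and 0.336). The other spots of the cortex ratio hold the choroid plexus cluster. That cluster had 3406 Col9a3 counts against 4776 outside it in set 1, and 54 against 4624 in set 2. Col9a2 was higher in the hypothalamus and preoptic area, at 43.3, 73.4, 67.5 and 113 CPM against 19.1, 30.3, 27.7 and 51.8 CPM, ratios of 2.27, 2.42, 2.44 and 2.19, and was higher in the ventricle lining (3.62 and 2.25). The hypothalamic levels ranged widely over the 4 sets, the outside levels ranged with them, and the ratios lay near each other. At a clustering resolution of 0.4 the calls of Col9a2, Col2a1, Col5a1, Col6a1 and Col19a1 in this area were all lost.

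Col9a1 stood far higher in cluster 14 of set 3 than in that of set 2. It stood at 3.20 and 57.3 CPM in cluster 14 of sets 2 and 3 and at 1.49 and 1.32 CPM outside, ratios of 2.15 (1.24 to 3.51) and 43.5 (37.1 to 51.2). The call was lost under 3 other settings. In white matter its ratios were 6.89, 3.33, 1.89 and 3.41, not called since set 3 lay under 2, and in the cortex it was lower (0.362, 0.404, 0.0882 and 0.406). Col14a1, which binds fibrils through decorin, was higher in the meninges, at 11.4, 12, 5.67 and 12 CPM and ratios of 4.68, 5.75, 2.84 and 4.58, and lower in the thalamus (0.258 and 0.443). In the choroid plexus cluster its ratios were 5.74, 0.767, 4.80 and 6.38, higher without set 2. Col16a1 and Col20a1 were called in none of the areas. In the striatum the Col16a1 ratios were 0.287, 0.461, 0.505 and 0.468, and 1 set stood above 0.5.

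Among the transmembrane collagens, which are anchored in the cell membrane and can be shed, Col13a1 was higher in the meninges. It stood at 12, 21.9, 14.5 and 13.7 CPM in the meninges and 1.65, 1.64, 1.5 and 1.64 CPM in other spots, ratios of 7.30 (4.45 to 11.4), 13.3 (9.56 to 18.3), 9.66 (6.76 to 13.5) and 8.37 (4.66 to 14.1), and its levels did not overlap. Without set 2 it was higher in the choroid plexus cluster (4.30, 4.47 and 11.7 in sets 1, 3 and 4). Col25a1, a neuronal collagen whose shed form binds amyloid, was higher in the thalamus and in cluster 14. In the thalamus it stood at 117 and 206 CPM in sets 1 and 4, against 36.8 and 80.3 CPM, ratios of 3.19 and 2.57, and in cluster 14 at 248 and 72.8 CPM in sets 2 and 3, ratios of 6.03 and 2.05, the latter call lost with TMM or RLE scaling. In the hypothalamus and preoptic area its ratios of 2.27, 1.58, 3.69 and 2.59 missed the call in set 2, where most spots of the area were of cluster 17. In the choroid plexus cluster Col25a1 was lower without set 2 (0.416, 0.454 and 0.422 in sets 1, 3 and 4). Col23a1 was higher in cluster 14 (4.29 and 2.90) and lower in the thalamus (0.143 and 0.183). Col17a1, the hemidesmosome collagen of skin, had 1 to 5 counts per set and did not pass the minimum.

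The multiplexins, Col15a1 and Col18a1, are basement membrane collagens with long side chains of sugar, and their C-terminal ends release the fragments restin and endostatin. Col18a1 stood at 35.9, 2.65, 23.2 and 15.5 CPM in the choroid plexus cluster, ratios of 11.7, 1.04, 11.4 and 4.07, higher without set 2. It was higher in the thalamus (2.56 and 2.80) and lower in the cortex (0.236, 0.405, 0.271 and 0.274). The other spots of the cortex ratio hold the choroid plexus cluster, where Col18a1 had 285 counts in set 1 against 512 outside it. In the meninges its ratios of 1.26, 6.57, 3.27 and 3.63 were split, with set 1 under 2 and no call. Col15a1 was higher in cluster 14 alone among the areas (3.65 and 2.59). Of the 3 genes outside these classes, Col26a1 was lower in white matter (0.443, 0.458, 0.396 and 0.439), Col28a1 was not called in any area, and Col7a1, the anchoring-fibril collagen, had 76 to 164 counts per set and did not pass the minimum.

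Set directly against the striatum, the cortex had 5 of the 37 collagen genes higher and 1 lower, where 6.37% of all genes were higher and 4.31% lower. The higher genes were Col5a1, Col22a1, Col24a1, Col12a1 and Col19a1. Col22a1 had ratios of 9.96, 8.15, 6.92 and 5.26, Col24a1 of 4.46, 3.20, 4.62 and 2.76 and Col19a1 of 2.47, 2.74, 2.39 and 2.33. The fibroblast marker list stood at 1.22 to 1.40 times in cortex over striatum and the smooth muscle list at 0.539 to 0.656 times, and their part was not tested. Col1a1 and Col1a2 had cortex to striatum ratios of 1.61, 1.17, 1.64 and 1.10 and of 1.13, 1.02, 1.25 and 1.2, with no call.

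Within the cortex several collagen genes differed between clusters. The cortical clusters lead with genes known from different layers: cluster 7 with Vip, Lamp5 and Cux2, cluster 21 with Rorb, cluster 1 with Fezf2, cluster 3 with Rprm, cluster 16 with Ccn2 and Cplx3, and cluster 10 with Nr4a2. Set 4 fell mostly in clusters 8 (Cux2, Lamp5) and 22 (Tbr1, Nr4a2), so sets are compared within a cluster only where at least 30 spots were there. Col19a1 stood at 74.8, 118 and 93.5 CPM in sets 1, 2 and 3 in cluster 7 and at 74.8 CPM in set 4 in cluster 8, but at 37.1, 47.7 and 42.3 CPM in sets 1, 2 and 3 in cluster 3. In each of sets 1 to 3 the cluster 7 value was above the cluster 3 value. In cluster 16 Col19a1 stood at 63.8, 58.8, 82.0 and 68.7 CPM in sets 1 to 4.

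Col5a1 had another order than Col19a1. It stood at 2.71, 8.23 and 5.92 CPM in sets 1, 2 and 3 in cluster 1, at 19.9, 66.7 and 31.8 CPM in sets 1, 2 and 3 in cluster 3 and at 21.1, 72.2, 40.6 and 48.4 CPM in sets 1 to 4 in cluster 16. In cluster 22 it stood at 55.5 CPM in set 4. In each of sets 1 to 3 clusters 3 and 16 lay above cluster 1. Col6a1 stood at 4.10, 5.87 and 9.99 CPM in sets 1, 2 and 3 in cluster 7, 67.1, 65.2 and 75.2 CPM in sets 1, 2 and 3 in cluster 3 and 86.6, 41.0, 39.5 and 52.4 CPM in sets 1 to 4 in cluster 10. The cortex as a whole hid this range, with Col6a1 ratios of 1.25, 1.31, 1.14 and 1.94 and no call.

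Col12a1 stood at 10.7, 10.8, 7.07 and 5.23 CPM in sets 1 to 4 in cluster 16 and at 0.643, 1.26 and 0.762 CPM in sets 1, 2 and 3 in cluster 7. Col26a1 stood at 22.9, 34.5 and 26.3 CPM in sets 1, 2 and 3 in cluster 21 and at 4.04, 4.89 and 4.96 CPM in sets 1, 2 and 3 in cluster 3. Col23a1 stood at 45.5, 46.4, 37.6 and 73.2 CPM in sets 1 to 4 in cluster 10, but at 1.23, 1.28 and 3.50 CPM in sets 1, 2 and 3 in cluster 21. Col22a1 stood at 12, 20.4, 12.5 and 13.6 CPM in sets 1 to 4 in cluster 10. The clusters named for each gene within the cortex differ by gene and were chosen from these same values. A separation between them is therefore a description only, and no share of all genes is given beside it.

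**Figure D4:**
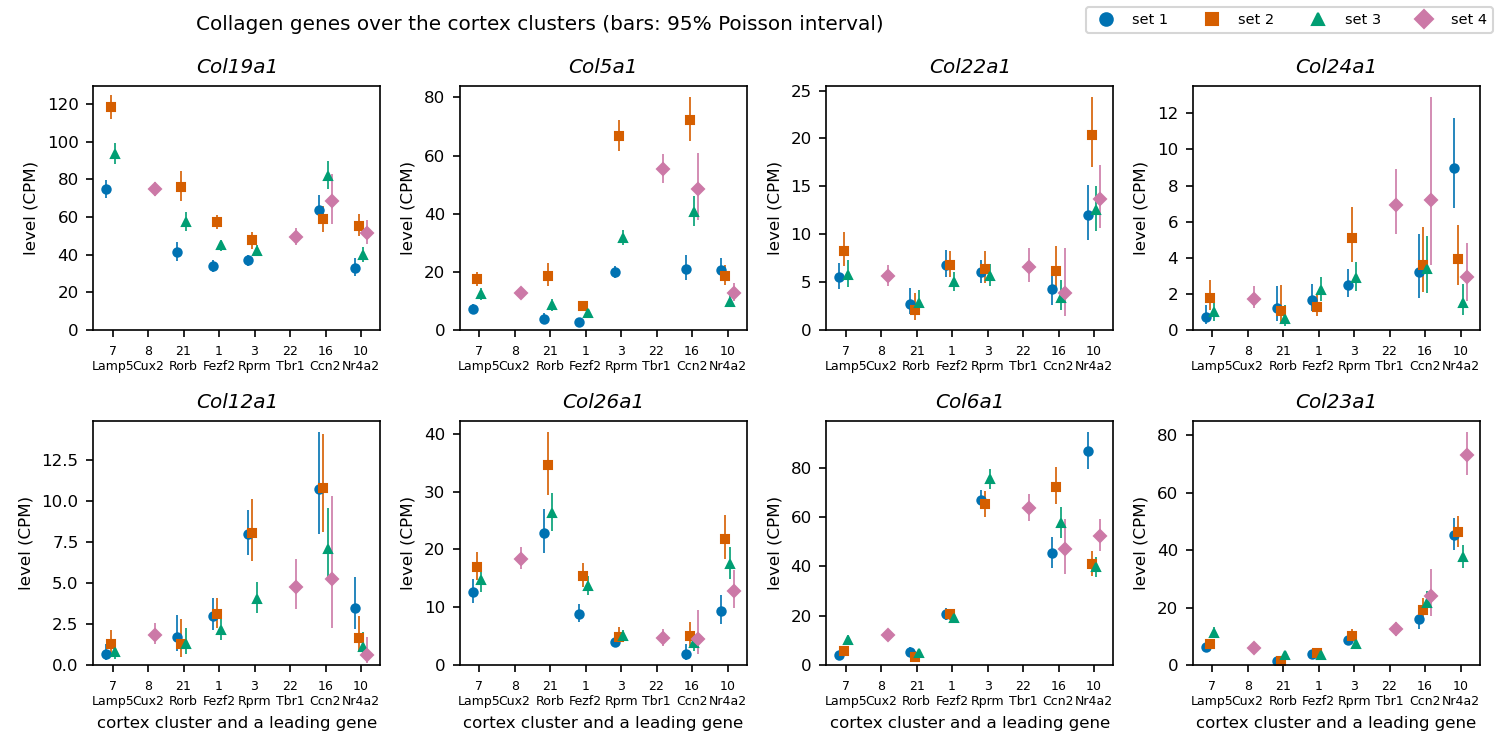
CPM of Col19a1, Col5a1, Col22a1, Col24a1, Col12a1, Col26a1, Col6a1 and Col23a1 in the cortical clusters, each named by a leading gene, with 1 point per barcode set that has at least 30 spots there and exact 95% counting intervals. In sets 1 to 3 Col19a1 is highest in cluster 7 (Lamp5), while Col5a1 and Col6a1 stand lower there than in clusters 3 (Rprm) and 16 (Ccn2).

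No cluster of spots was led by vessel genes, so vessels were read as a range of marker level. Outside the meninges and choroid plexus areas, the 10% of spots with the highest summed CPM of endothelial, pericyte and smooth muscle markers (265 to 326 spots per set) were set against the lower 50% (1324 to 1627 spots). In the vessel-marker-rich spots 6 of the 37 collagen genes were higher and 1 lower, where 3.28% of all genes were higher and 0.0518% lower. The median ratio of the 37 genes was 1.63, against 1.03 over all genes.

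Col3a1 had the largest ratios of the vessel-marker-rich spots in sets 2, 3 and 4, and Col8a2 in set 1. Col3a1 stood at 30.8, 14.5, 16.8 and 14.5 CPM there and 2.03, 1.89, 1.85 and 1.69 CPM in the lower 50%, ratios of 15.2 (12.8 to 18.1), 7.69 (5.89 to 10.0), 9.10 (7.32 to 11.3) and 8.62 (6.35 to 11.7). Col1a1 had ratios of 6.48, 7.29, 4.21 and 7.90, Col1a2 of 6.19, 5.57, 4.60 and 5.56, Col13a1 of 6.54, 7.04, 6.14 and 3.50 and Col4a5 of 5.51, 2.84, 3.62 and 3.98. For each of these the 4 values in rich spots lay above the 4 values in the lower 50%. Col4a1 and Col4a2, the genes of the vascular basement membrane itself, had ratios of 2.51, 1.82, 1.74 and 2.17 and of 1.76, 1.40, 1.33 and 1.36, all above 1, and were not called. Col15a1 had ratios of 2.38, 2.43, 2.26 and 1.99, of which set 4 missed the limit.

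The rich spots were not a sample of all areas. Of the rich spots 17.2% lay in the cortex and 5.86% in the ventricle lining, against 44.7% and 0.251% of the lower 50%. Col8a2 was called higher with ratios of 23.1, 2.81, 8.15 and 7.14, but within striatum and cortex alone they were 4.94, 1.03, 0.987 and 2.31, with no call. Col5a1 was called lower with ratios of 0.488, 0.476, 0.458 and 0.440, and within striatum and cortex they were 0.608, 0.380, 0.446 and 0.461, with the first above 0.5. Col3a1 had ratios of 12.8, 6.44, 7.30 and 6.28 within striatum and cortex, and the call of Col4a5 was lost there. In the rich spots fibroblast markers stood at 1.99 to 2.37 times (7 of 11 higher) and meningeal markers at 2.49 to 3.52 times (14 of 22 higher) their level in the lower 50%, and median counts per spot were 38950, 30740, 29730 and 19500 in the rich spots of sets 1 to 4 against 61910, 42340, 53520 and 30440 in the lower 50%. The fibroblast and meningeal lists share genes. The meningeal list also shares Vtn with the pericyte markers that chose the rich spots. Vtn is in its summed ratio but not among the 22 tested. The part of these lists and of depth in the collagen ratios was not tested.

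Genes that make, bind or degrade collagen were followed in the same spots. In the meninges 6 of 7 tested small proteoglycans that bind fibrils were higher and 0 lower, namely Fmod, Ogn, Lum, Dcn, Bgn and Aspn, and the median ratio of the list was 11.5. Fmod, fibromodulin, stood at 89.9, 232, 109 and 169 CPM inside and 4.39, 3.72, 4.35 and 3.74 CPM outside, ratios of 20.5, 62.4, 25 and 45.2. Of the basement membrane partners 8 of 17 were higher and 0 lower, among them the laminin chain genes Lama1 (ratios of 5.74, 7.70, 7.97 and 4.16) and Lamb2 (2.94, 6.42, 5.36 and 3.87). Of 19 genes for chain modification and folding 3 were higher and 0 lower, led by Fkbp10 and by Serpinh1, the collagen chaperone, with ratios of 2.93, 5.72, 3.05 and 3.75. Most genes of the folding list, among them those for the hydroxylase subunits, were not called. All shares are to be read beside the 3.73% of all genes.

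Of 8 cleavage and cross-linking genes Pcolce and Loxl1 were higher in the meninges, and Pcolce2 lower. Pcolce and Pcolce2 encode enhancers of the enzyme that cuts the end of procollagen. Pcolce had ratios of 3.20, 20.8, 5.27 and 9.49 and Pcolce2 of 0.306, 0.479, 0.323 and 0.461, so the pair pointed in opposite directions. In the choroid plexus cluster without set 2 both were higher, Pcolce with 34.2, 27.9 and 22.7 and Pcolce2 with 10.9, 10.9 and 6.40 in sets 1, 3 and 4. There Nid2, the basement membrane linker nidogen 2, had ratios of 17.8, 19.9 and 17.1, and 6 of 7 proteoglycans, 6 of 17 basement membrane partners and 4 of 8 cleavage genes were higher, beside 7.24% of all genes. Among receptors 3 of 9 were higher in the meninges, namely Mrc2, Ddr2 and Itga1, and of 6 degrading enzymes 0 were higher or lower.

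In the vessel-marker-rich spots all 7 proteoglycans and 8 of 17 basement membrane partners were higher, beside 3.28% of all genes, and the folding list had 2 of 19, Serpinh1 and Fkbp10. In the cortex 0 proteoglycans were higher and 4 of 7 lower, beside 2.61% and 6.85% of all genes, and Sparc, a collagen-binding matrix protein of glia and vessels, had ratios of 0.156, 0.203, 0.168 and 0.136. In the striatum Adamts3, a procollagen-cutting protease, was higher at 169, 120.0, 134 and 105 CPM against 27.1, 25.8, 26.3 and 15.7 CPM, ratios of 6.25, 4.66, 5.11 and 6.68, and Pxdn, the peroxidase that cross-links type IV collagen, had ratios of 3.02, 3.51, 3.33 and 2.24. Tll1, Lamb3, Lamb1 and Itga11 were higher there too, and Plod2, Sparc, Fmod and Mmp9 were lower, beside 2.92% of all genes higher and 8.2% lower. In white matter the collagen receptor gene Ddr1 was higher with ratios of 5.35, 6.10, 5.19 and 4.31. In the ventricle lining 6 of 19 folding genes were higher, with Serpinh1 at ratios of 6.55 and 6.43, beside 8.6% of all genes. Of these, P4ha2 and Fkbp14 had ratios of 2.03 in set 4 and Crtap of 2.10 in set 3, near the limit of 2. Some collagen calls in this area were lost with other scaling, and no other scaling is given here for partner genes.

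Over whole sections, 12 of the 37 collagen genes differed by at least 2-fold between the highest and the lowest set with an interval that leaves out 1, where 15.7% of all genes did. Outside the meninges and choroid plexus areas the count was 11, where 15.6% of all genes did. The median ratio of highest to lowest set was 1.73 for the collagen genes and 1.46 for all genes. Col8a2 ranged furthest, at 11.8, 1.60, 7.30 and 3.27 CPM in sets 1 to 4, a ratio of 7.40 (6.34 to 8.69). Sets 1 and 3 were high and sets 2 and 4 low, and the choroid plexus cluster held 88 and 94 spots in sets 1 and 3 against 36 and 33 in sets 2 and 4. Outside meninges and choroid plexus Col8a2 stood at 3.07, 1.22, 2.40 and 2.22 CPM, a ratio of 2.51. Col8a1 stood at 9.76, 2.22, 5.29 and 3.53 CPM, a ratio of 4.41, and outside these areas its ratio was 1.48, so it was no longer apart.

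Other areas also had unequal numbers of spots in the 4 sets. Col6a3 stood at 2.32, 4.67, 7.05 and 1.39 CPM, highest in set 3, and Col9a1 at 1.18, 1.58, 5.27 and 1.63 CPM, also highest in set 3. Cluster 14, where both were higher, held 26, 140, 261 and 0 spots in sets 1 to 4. Col27a1 stood at 9.73, 3.58, 6.28 and 8.98 CPM, and the thalamus cluster held 149, 0, 2 and 298 spots. The part of the plane of section in these differences was not tested. Col5a1 stood at 6.03, 17.6, 9.89 and 13.1 CPM, a ratio of 2.91 (2.70 to 3.14), with set 2 highest and set 1 lowest, and inside the cortex at 12.1, 29.2, 16.8 and 24.9 CPM in the same order. Col2a1 at 1.72, 2.23, 1.83 and 5.49 CPM and Col25a1 at 42.8, 51.8, 38.2 and 95.3 CPM were highest in set 4, Col9a2 also in set 4 at 21.7, 36.4, 30.9 and 58.3 CPM. Col1a1, Col5a2 and Col5a3 completed the 12, with ratios of 2.15, 2.5 and 3.85. No genotype can be read from these differences.

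**Figure D5:**
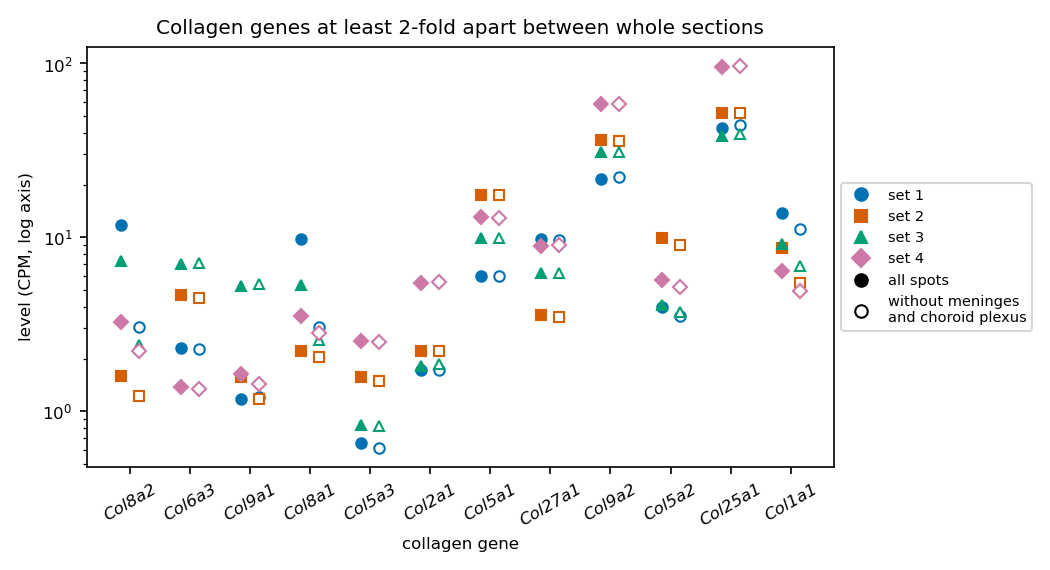
CPM of the collagen genes that differed by at least 2-fold between barcode sets, over all spots kept and over spots outside the meninges and choroid plexus areas, on a log axis, with 1 filled point per set for all spots and 1 open point per set without the 2 areas. Without them the ratio of the highest to the lowest set falls from 4.41 to 1.48 for Col8a1 and from 7.40 to 2.51 for Col8a2.

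Chains of one collagen type were set beside each other over 75 points of a cluster in a set, which share libraries and depth, so the correlations are a description. Col1a1 and Col1a2 had Pearson's r of 0.869 and Spearman's rho of 0.766, and Col1a2 and Col3a1 had 0.881 and 0.782. Col6a1 and Col6a2 had 0.840 and 0.833, and Col4a1 and Col4a2 had 0.772 and 0.747. Col8a1 and Col8a2 had 0.599 and 0.388. The other pairs were looser: Col9a1 and Col9a3 had 0.405 and 0.441, Col5a1 and Col5a2 had 0.089 and 0.101, Col11a1 and Col11a2 had -0.027 and -0.021, and Col6a1 and Col6a3 had -0.079 and -0.035.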

How the data were processed

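Visium CytAssist sections of 4 mouse brains were processed with Space Ranger and Seurat, per the submitters' processing notes; their settings, the probe set and the genome build are not given in the sources used here. The deposited table, per the labels and its values, holds raw counts of whole numbers per gene and spot, which the authors did not tie to mice in the spot names. Spots with at least 500 counts were kept. Clusters were found without collagen, partner and sex-linked genes, from log values at 10000 counts a spot, centred by gene in every set, of 2000 variable genes in 30 components (scanpy 1.11.5, Leiden method of leidenalg 0.10.2, 15 neighbours, resolution 0.8, seed 0). Leading genes have the largest fold of mean CPM with 10 CPM added. Ratios used summed counts with exact conditional binomial intervals, and levels Poisson intervals (scipy 1.17.1), all at 95% and for counting error only. Cells were not called and doublets do not apply to spots. Scaling factors for the alternatives came from edgeR 4.0.16. The script was tested on simulated data. Promoter windows are RefSeq's. Every collagen gene is accounted for; values in each set are given for those called in an area, between sections or in the vessel-marker-rich spots. Named partner genes are those called, by list. The collagen genes, lists and markers were chosen with earlier results of these data known. The genotype test planned with edgeR was not run.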

Additional observations from a re-analysis of the deposited data

How the results depend on the processing

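Of 1271 ratios of called collagen genes under other settings, 1177 kept their direction and passed the same limits. A further 93 kept their direction but no longer passed them. The remaining 1 turned: Col25a1 in the choroid plexus without set 2, with a median log2 ratio of 0.13 where the area came from a marker score. Leaving out a set, a smaller fold or no minimum of counts per gene cannot lose a call of an area, and none of the 93 came from these settings. Passes under such settings were not counted apart, so the share kept does not measure stability. No area of meninges or ventricle lining was found without centring, and none of ventricle lining at resolution 0.4.

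Counts of collagen genes called moved by over 1.5 times as follows, and the cause was not tested. For the choroid plexus the count of 6 became 19 at resolution 0.4 and 19 without centring, and 3 by marker score; without set 2 the 15 became 9 by marker score. In the meninges 9 became 5 by marker score, which takes in 847 to 1356 spots per set. In the ventricle lining 9 became 5 with RLE scaling. In white matter 5 became 2 without centring and 2 at a minimum of 2000 counts per spot. At a fold of 1.5, with fewer conditions to meet, the striatum went from 8 to 16, the cortex from 10 to 19, the hypothalamus and preoptic area from 5 to 9 and cortex over striatum from 6 to 10. Without centring the striatum had 5, the cortex 6 and the thalamus 5 in place of 12. The hypothalamus and preoptic area had 1 at resolution 0.4 and 2 at a minimum of 1 count per spot. Vessel-marker-rich spots had 11 for the top 5% and 4 for the top 25% in place of 7.

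A call needs every set used to pass, so leaving out a set cannot lower the count of an area or other comparison of spots. The ranges of these counts therefore do not measure stability. In the ventricle lining, thalamus and cluster 14 a single set was then left. For genes apart between sections, fewer sets leave fewer pairs to differ. Leaving out each set in turn gave 6 to 15 for the choroid plexus (15 without set 2), 5 to 9 for white matter (9 without set 2) and 13 to 19 for the thalamus (19 without set 4). It gave 9 to 11 for the meninges, 12 to 13 for the ventricle lining, 9 to 10 for the striatum, 10 to 14 for the cortex, 5 to 7 for the hypothalamus and preoptic area, 16 to 16 for cluster 14, 7 to 10 for vessel-marker-rich spots, 6 to 8 for cortex over striatum and 8 to 11 for the genes apart between sections. Single calls lost elsewhere include Col27a1 in white matter (TMM scaling, resolution 0.4, no centring, minimum of 2000 counts), Col9a1 in cluster 14 (resolutions 0.4 and 1.2, no centring), Col22a1 in the cortex (resolution 1.2, no centring) and Col11a2 in cortex over striatum (TMM, RLE, resolution 1.2, no centring).

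No paired analysis was possible because the barcode sets carry no replicate number of the labels; the genotype test, its replicate block and DESeq2 were not run for the same reason. Genes with few counts, such as Col5a3 and Col6a6, have wide intervals, and spots mix cell types. The 4 sets differ in their numbers of spots per area and are not treated as replicates of one another. The plane of each section is not given in the sources used here.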
